A study of Mus musculus with 8 samples.

Results

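The Notch receptors, their Jagged and Delta-like ligands and the Hes and Hey transcription factors were examined in cultured cells from adult mouse muscle. Members were taken by gene name (Notch1 to Notch4, Jag1, Jag2, Dll1, Dll3, Dll4, Hes1 to Hes7, Hey1, Hey2 and Heyl), and 7 of these 19 names were among the 5457 genes that the authors' deposited table lists. The listed members were 3 of 4 receptors (Notch1, Notch2 and Notch3), 2 of 5 ligands (Jag1 and Jag2) and 2 of 10 Hes and Hey genes (Hes1 and Hes6). Notch4, Dll1, Dll3, Dll4, Hes2, Hes3, Hes4, Hes5, Hes7, Hey1, Hey2 and Heyl are unlisted and were not analysed here.

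Notch is a receptor that is activated by a ligand on a neighbouring cell, of the Jagged or the Delta-like family. Binding lets proteases release the receptor's intracellular domain, which enters the nucleus. There, with the DNA-binding protein Rbpj and a Mastermind coactivator, it turns on certain Hes and Hey genes, not all of them. The products of Hes and Hey genes are transcription factors of the basic helix-loop-helix (bHLH) class, many of them repressors. In muscle, Notch signalling is known for holding satellite cells, the resident stem cells, and their myoblast progeny back from differentiation.

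All mice were adult C57BL/6 animals that carried a tdTomato reporter and 1 tamoxifen-dependent Cre allele, and all received 3 tamoxifen treatments 10 days before the hind limb muscle was taken. The groups were Tw2_48 and Tw2_GM, with the genotype Tw2-CreERT2/+;R26-tdTO+, and Pax7_48 and Pax7_GM, with the genotype Pax7-CreERT2/+;R26-tdTO+, each of 2 RNA-seq libraries. The Cre is driven by Twist2 (Tw2), which encodes a bHLH transcription factor, or by Pax7, which encodes a factor characteristic of satellite cells. Sorted tomato-positive cells were plated on Matrigel. GM stands for growth medium, which the labels give as Ham's F10 with 20% fetal bovine serum, and they give DMEM with 2% horse serum and bFGF as the medium for differentiation. The Tw2 titles give 48 in hours, the Pax7 titles give 48 with no unit, and no label says which medium the 48 cultures were in. The labels describe culture and also RNA taken from freshly sorted cells. They do not say whether the 2 libraries of a group came from separate mice or cultures, so p-values measure the spread between these libraries, which may be technical.

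Levels are CPM, counts per M reads of the library. The table holds group means, and each mean was resolved into the whole reads of its 2 libraries, called deeper and shallower, for 5451 of the 5457 genes, all 7 members included. The libraries had an implied size of 5.18 to 13.7 M reads each, with Pax7_GM the shallowest group and the one whose 2 libraries were least alike (Pearson r of log2 values 0.962 across genes, against 0.994 to 0.996 in the other groups). The 15 listed of 18 markers of muscle differentiation (such as Myog, Ckm and Ttn) summed to 18842 to 19727 CPM in Tw2_48, 432 to 548 CPM in Tw2_GM, 17504 to 17778 CPM in Pax7_48 and 1764 to 1862 CPM in Pax7_GM. Pax7 itself measured 13.0 and 12.6 CPM in Tw2_48 against 113 and 109 in the Tw2_GM libraries, and 9.58 and 9.95 CPM in Pax7_48 against 117 and 112 in those of Pax7_GM. Of the 8 listed of 14 satellite cell markers, 3 rose (Itga7, Cdh15 and Spry1) and 4 fell (Pax7, Vcam1, Cxcr4 and Sdc4) in the 48 culture of each lineage. They summed to 2726 to 2853 CPM in Tw2_48 against 1997 to 2092 CPM in the Tw2_GM libraries, and to 3569 to 3866 CPM in Pax7_48 against 2055 to 2151 CPM in Pax7_GM. Twist2 is unlisted, so the Tw2 label has no check on its own gene.

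Every gene in the table is at least 1 log2 unit from Tw2_GM in at least 1 of the other 3 groups by the authors' means. A listed member therefore had to differ somewhere, and counts over the listed members describe these genes and support nothing about the pathway. Comparisons with Tw2_GM use the values by which genes were listed, so p-values there are no independent support for a difference. The other comparisons use group means that also entered the listing, so their p-values are not independent of it. In the authors' deposited table, Hes6 passed that bound in all 3 comparisons, and Hes1, Jag1, Jag2 and Notch2 passed it in Tw2_48 and Pax7_48. Notch1 passed it only in Tw2_48, with a deposited log2 fold change of 1.25, and Notch3 only in Pax7_GM, with 1.41, both set against Tw2_GM.

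Of the receptors, Notch1 was higher in the 48 cultures of both lineages. Notch1 had 212 and 184 CPM in Tw2_48 against 86.6 and 79.1 CPM in the Tw2_GM libraries, and 118 and 130 CPM in Pax7_48 against 84.4 and 77.6 CPM in Pax7_GM. The Tw2_48 libraries were the highest, the Pax7_48 libraries came next, and the values of Tw2_GM and Pax7_GM overlapped. On the log2(CPM + 1) scale the change was 1.25 ± 0.14 (SE) in Tw2_48 against Tw2_GM (limma, adjusted p = 4.21e-05) and 0.61 ± 0.14 in Pax7_48 against Pax7_GM (adjusted p = 0.00339). Notch1 was listed only through the Tw2_48 difference, so the p-value of that comparison is no independent support for it.

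Notch2, also a receptor, was lower in the 48 cultures of both lineages. It had 78.8 and 70.9 CPM in Tw2_48 against 190 and 191 CPM in the Tw2_GM libraries, and 62.2 and 62.1 CPM in Pax7_48 against 148 and 182 CPM in Pax7_GM. All 4 libraries of the 48 cultures lay below all 4 of the GM cultures. Notch2 fell by 1.34 ± 0.14 on the log2 scale in Tw2_48 and fell by 1.39 ± 0.14 in Pax7_48, each against its GM culture (limma, adjusted p = 3.33e-05 for both).

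Notch3, a receptor best known from vascular smooth muscle and also made by myogenic cells, was set apart by lineage. It had 25.2 and 22.0 CPM in Tw2_48 against 27.6 and 31.0 CPM in the Tw2_GM libraries, and 35.8 and 49.4 CPM in Pax7_48 against 79.0 and 79.7 CPM in Pax7_GM. Every Pax7 library was above every Tw2 library, and Pax7_GM was the highest group. Notch3 fell by 0.90 ± 0.17 in Pax7_48 against Pax7_GM (limma, adjusted p = 0.00139). It was listed only through its high level in Pax7_GM, so this p-value too is no independent support. In Tw2_48 against Tw2_GM its difference was -0.30 ± 0.17 (limma, adjusted p = 0.137, 95% interval -0.70 to 0.10). The libraries of these 2 groups did not overlap, as in 95% of all genes.

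Both listed ligands were lower in the 48 cultures. Jag1 had 4.44 and 5.43 CPM in Tw2_48 (61 and 51 reads) against 27.4 and 33.6 CPM in the Tw2_GM libraries, and 2.16 and 2.62 CPM in Pax7_48 (23 and 20 reads) against 21.9 and 27.2 CPM in Pax7_GM. The low levels in the 48 cultures rest on few reads, and the added pseudocount of 1 makes their log2 change smaller than that of the CPM itself. Jag1 fell by 2.40 ± 0.17 in Tw2_48 against Tw2_GM (limma, adjusted p = 2.91e-06) and fell by 2.91 ± 0.17 in Pax7_48 against Pax7_GM (adjusted p = 1.38e-06).

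Jag2 had 85.5 and 78.2 CPM in Tw2_48 against 216 and 225 CPM in the Tw2_GM libraries, and 76.2 and 80.8 CPM in Pax7_48 against 183 and 156 CPM in Pax7_GM. The 48 cultures of the lineages overlapped, and both lay below the GM cultures. Jag2 fell by 1.42 ± 0.14 in Tw2_48 (limma, adjusted p = 1.71e-05) and fell by 1.10 ± 0.14 in Pax7_48 (adjusted p = 0.000101), each against its GM culture.

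The Hes genes moved in opposite directions. Hes1, a repressor and a standard readout of Notch activity, had 9.32 and 8.94 CPM in Tw2_48 against 72.9 and 73.3 CPM in the Tw2_GM libraries, and 11.1 and 7.20 CPM in Pax7_48 against 46.9 and 47.8 CPM in Pax7_GM. The 48 libraries of both lineages overlapped at a low level, while Tw2_GM lay above Pax7_GM. Hes1 fell by 2.87 ± 0.18 in Tw2_48 against Tw2_GM (limma, adjusted p = 1.34e-06) and fell by 2.28 ± 0.18 in Pax7_48 against Pax7_GM (adjusted p = 7.35e-06).

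Hes6, a family member known to oppose Hes1 and to favour differentiation in mouse neural and muscle precursors, had 803 and 909 CPM in Tw2_48 against 201 and 227 CPM in the Tw2_GM libraries, and 877 and 780 CPM in Pax7_48 against 526 and 409 CPM in Pax7_GM. The 48 libraries of the lineages overlapped, Pax7_GM was intermediate and Tw2_GM lowest. Hes6 rose by 1.99 ± 0.17 in Tw2_48 against Tw2_GM (limma, adjusted p = 6.89e-06) and by 0.83 ± 0.17 in Pax7_48 against Pax7_GM (adjusted p = 0.00163).

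**Figure D1:**
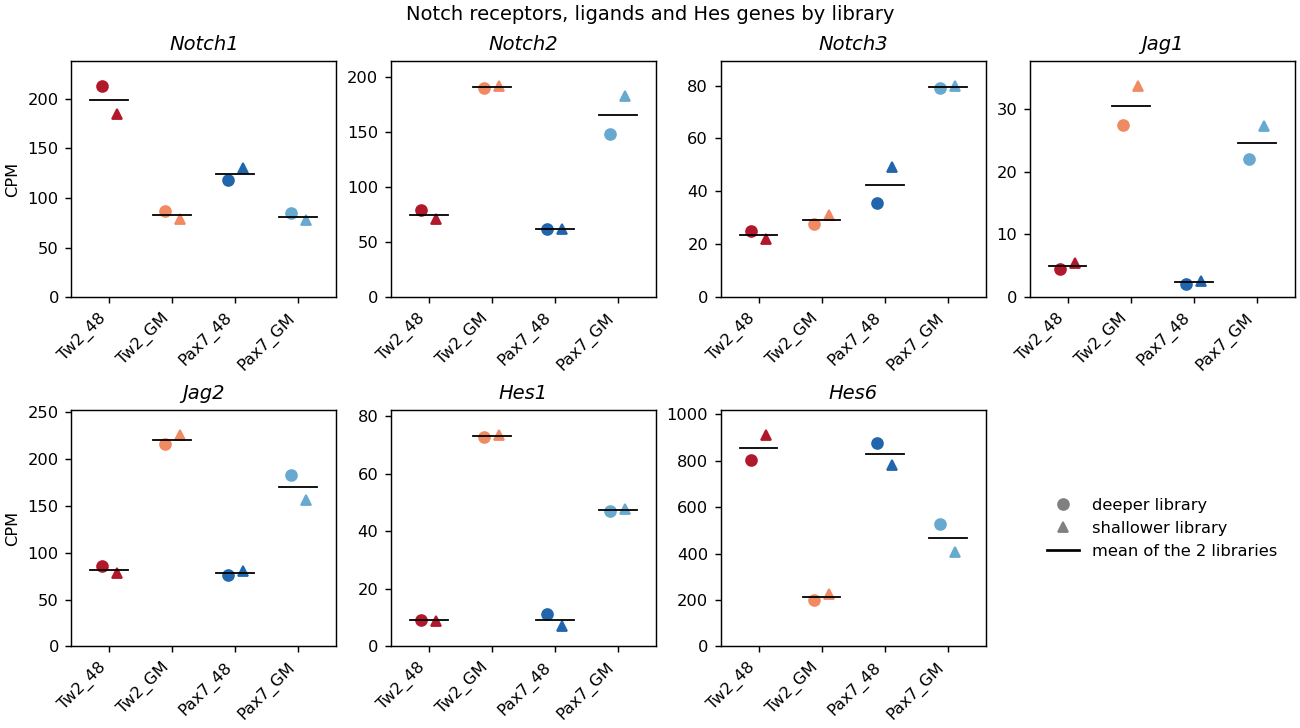
Level of each listed member in CPM (vertical axis, from 0, scaled per gene) in the 4 groups, with the deeper library as a circle, the shallower as a triangle and their mean as a line. Notch1 and Hes6 sit higher in the 48 cultures, Notch2, Jag1, Jag2 and Hes1 sit lower there, and Notch3 is highest in Pax7_GM at 79.0 and 79.7 CPM.

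The promoter windows of Hes6 and Jag1 are shown because Hes6 was the member with the largest rise and Jag1 the ligand with the largest fall, and because their windows hold E-boxes (CANNTG), the sites that bHLH factors bind. The windows run from 250 bases before to 50 after the start site, in RefSeq's GRCm38.p6 table, which matched 6 of the 7 listed members (Hes1 was not matched). They are printed 5′ to 3′ on the gene's strand with E-boxes in capitals. The Hes6 windows lie at chr1:91413989-91414288 and, for a second start, at chr1:91413173-91413472, both on the minus strand, and the Jag1 window at chr2:137116471-137116770 on the minus strand.
Hes6: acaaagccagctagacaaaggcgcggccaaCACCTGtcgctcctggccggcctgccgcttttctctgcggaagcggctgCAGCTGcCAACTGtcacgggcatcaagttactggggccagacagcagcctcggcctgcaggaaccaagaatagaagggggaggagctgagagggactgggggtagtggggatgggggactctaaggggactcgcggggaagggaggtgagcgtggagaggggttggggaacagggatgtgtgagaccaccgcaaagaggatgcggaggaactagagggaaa
Hes6 second start: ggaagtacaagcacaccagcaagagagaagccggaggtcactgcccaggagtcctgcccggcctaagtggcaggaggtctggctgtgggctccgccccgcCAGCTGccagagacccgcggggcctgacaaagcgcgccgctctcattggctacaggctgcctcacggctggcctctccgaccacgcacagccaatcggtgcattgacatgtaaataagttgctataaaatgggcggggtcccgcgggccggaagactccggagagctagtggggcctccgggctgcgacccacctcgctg
Jag1: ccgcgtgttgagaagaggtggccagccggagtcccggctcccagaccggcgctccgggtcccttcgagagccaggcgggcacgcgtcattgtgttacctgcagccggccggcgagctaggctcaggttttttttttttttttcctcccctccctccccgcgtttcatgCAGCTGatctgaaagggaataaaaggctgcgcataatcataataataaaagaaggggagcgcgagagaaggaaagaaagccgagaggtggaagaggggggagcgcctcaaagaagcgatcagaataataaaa

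The first Hes6 window held 3 E-boxes, at -220 (CACCTG), -171 (CAGCTG) and -164 (CAACTG) from the start site, and the second held 1, at -150 (CAGCTG). Jag1 held 1, at -82 (CAGCTG). No E-box was found in the windows of Notch1, Notch2, Notch3 or Jag2. An E-box stood in 72.3% of the 32851 promoter windows of the same length in the table. None of the 7 windows of the 6 members held TGGGAA, the core that Rbpj binds, on either strand, against 25.6% of all windows. The N-box CACNAG, a site that Hes proteins bind, was found 3 times in Notch1, 2 times in Notch3, the same number in the second Hes6 window and 1 time in Notch2, and 42.5% of all windows held it. TATAAA stood in the second Hes6 window and in 13.6% of all. E-boxes did not overlap the other motifs. These are matches of letters, and binding was not measured.

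Levels can be compared between genes per length, as mean CPM per kb of the longest annotated transcript (GENCODE M21; SD, n = 2). On that scale Hes6 was the highest member in every group, with 544 ± 47.6 in Tw2_48, 136 ± 11.5 in Tw2_GM, 527 ± 43.6 in Pax7_48 and 297 ± 52.6 in Pax7_GM. Jag1 was the lowest in the 48 cultures, with 0.879 ± 0.124 in Tw2_48 and 0.426 ± 0.0577 in Pax7_48, and also the lowest in Pax7_GM, while in Tw2_GM Notch3 was lower, at 3.65 ± 0.299, than Jag1, at 5.43 ± 0.781. Among the receptors the leading one differed by culture. Notch1 led in Tw2_48 at 20.9 ± 2.10, against 7.13 ± 0.533 for Notch2, and Notch2 led in Tw2_GM at 18.2 ± 0.0944, against 8.73 ± 0.554 for Notch1. In Pax7_48 Notch1 led at 13.1 ± 0.887, against 5.92 ± 0.00912 for Notch2 and 5.31 ± 1.20 for Notch3. In Pax7_GM Notch2 led at 15.7 ± 2.32, followed by Notch3 at 9.90 ± 0.0612 and Notch1 at 8.53 ± 0.510.

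**Figure D2:**
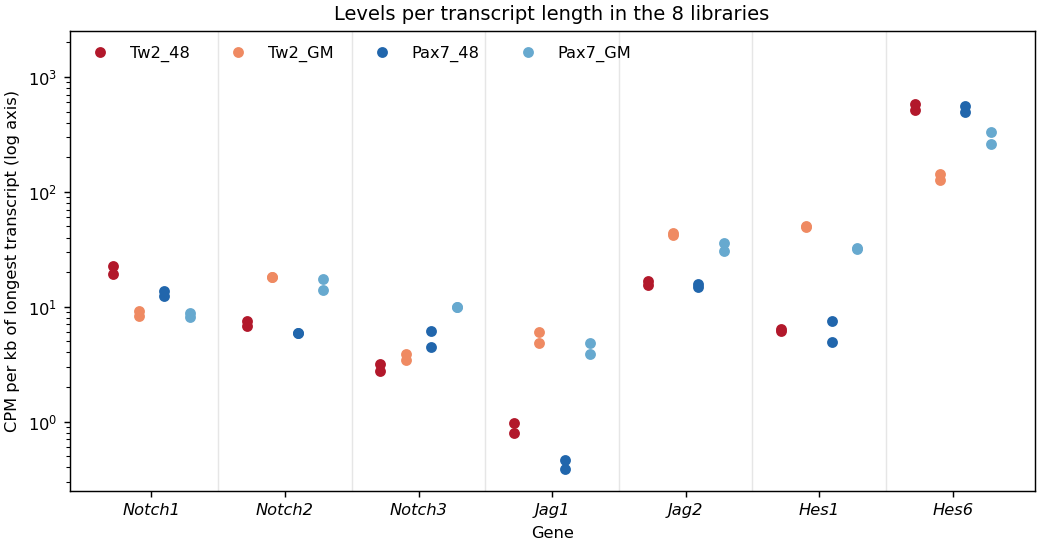
CPM per kb of the longest transcript (log axis) of each listed member, 1 point per library, coloured by group. Hes6 stands at 136 or more in every group mean, and Notch1 and Notch2 change places between the 48 and the GM cultures.

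Ratios of 2 members within a library do not depend on how libraries are scaled to each other. Per kb, the ratio of Notch1 to Notch2 was 2.98 and 2.88 in Tw2_48 against 0.504 and 0.457 in Tw2_GM, and 2.11 and 2.32 in Pax7_48 against 0.631 and 0.471 in Pax7_GM. Hes6 over Hes1 gave 80.4 and 94.9 in Tw2_48 against 2.58 and 2.89 in Tw2_GM, and 73.8 and 101.1 in Pax7_48 against 10.5 and 7.97 in Pax7_GM. Both ratios were above those of the GM cultures in all 4 libraries of the 48 cultures. The ratio of Jag2 to Jag1 was 21.1 and 15.8 in Tw2_48 against 8.68 and 7.38 in Tw2_GM, and 38.8 and 33.9 in Pax7_48 against 9.19 and 6.30 in Pax7_GM, higher in the 48 cultures of each lineage. A ratio shows unequal change and does not say which member changed.

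The change between cultures was counted over the listed members against the same count over all 5451 genes tested. In Tw2_48 against Tw2_GM, 2 members were called higher (Notch1 and Hes6) and 4 lower (Notch2, Jag1, Jag2 and Hes1) at an adjusted p under 0.05, where 35.3% of all genes were called higher and 48.9% lower. In Pax7_48 against Pax7_GM, the same 2 were called higher and 5 lower, with Notch3 added, where 38.7% of all genes were called higher and 40.5% lower. The members' median log2 change was -1.34 in Tw2_48 and -1.10 in Pax7_48, against medians of all genes of -0.50 and 0.01. All 7 members had libraries that did not overlap between the cultures, in both lineages, as did 95% of all genes in Tw2_48 against Tw2_GM and 85% in Pax7_48 against Pax7_GM. The 7 genes had to differ from Tw2_GM to be listed, so nothing is read from these counts about the pathway. The 2 comparisons share no library, but each gene's standard error comes from 1 spread estimated over all 8 libraries. That spread was uneven across groups, with an SD of the log2 ratio between libraries of 0.498 in Pax7_GM against 0.169 to 0.196 elsewhere.

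With size factors the median of all genes moved by 0.45 in Tw2_48 and 0.24 in Pax7_48. Relative to the median of all genes, as deposited and with size factors, Notch1 in Tw2_48 was 1.74 and 1.75 and Notch2 was -0.84 on both, while Notch3 was 0.20 and 0.19. Notch2, Jag1, Jag2 and Hes1 kept their fall and their call in both lineages under all 17 alternatives tried. Notch1 in Tw2_48 was 0.58 after the trend with transcript GC content and length was removed, still called, while in Pax7_48 it was then 0.23 (adjusted p = 0.0712). Hes6 in Pax7_48 was 0.23 with quantile normalization (adjusted p = 0.241). In Tw2_48 the value of Notch3 turned to 0.14 under size factors and 0.06 under quantile normalization, and was -0.87 and called once the GC and length trend was removed.

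The muscle differentiation markers moved with these changes. They were called higher in 15 of 15 listed genes in Tw2_48 against Tw2_GM and 14 of 15 in Pax7_48 against Pax7_GM. Of all genes, 35.3% and 38.7% were called higher. The part of these markers in the members' changes was not tested. In bulk RNA a smaller number of cells of 1 type and less RNA per cell cannot be told apart. Among markers of other cells, the pericyte gene Rgs5 measured 0.510 and 0.213 CPM in Tw2_48 against 56.3 and 62.1 CPM in the Tw2_GM libraries, and 0 in both Pax7_48 libraries, which allows up to 0.282 and 0.393 CPM, against 11.4 and 18.9 CPM in Pax7_GM. The 7 listed of 12 pericyte and smooth muscle markers summed to 11915 to 12318 CPM in Tw2_48 against 1745 to 1875 CPM in the Tw2_GM libraries, and to 9961 to 10489 CPM in Pax7_48 against 1890 to 2381 CPM in Pax7_GM. That sum is mostly Acta2 and Des, the second also a muscle gene, and Acta2 alone gave 8616 and 8229 CPM in Tw2_48 against 542 and 551 CPM in the Tw2_GM libraries. Of these 7, 4 rose and 3 fell in Tw2_48, and 3 rose and 3 fell in Pax7_48. The shares over all genes were 35.3% higher and 48.9% lower in Tw2_48, and 38.7% and 40.5% in Pax7_48. Besides Rgs5, Cspg4 and Mcam fell in both lineages, Cspg4 with -1.70 ± 0.19 in Tw2_48 and -1.05 ± 0.19 in Pax7_48, and Mcam with -2.30 ± 0.16 in Tw2_48 and -2.50 ± 0.16 in Pax7_48. Abcc9, Acta2 and Des rose in both lineages, Abcc9 by 5.26 ± 0.20 in Tw2_48 and by 4.24 ± 0.20 in Pax7_48. Tagln rose in Tw2_48 and was not called in Pax7_48. Of the endothelial markers only Eng was listed, and of the immune markers only Itgam, with 22.8 and 18.1 CPM in Tw2_48 against 0 in both Tw2_GM libraries (up to 0.246 and 0.266 CPM), and 15.9 and 11.9 CPM in Pax7_48 against 0.542 and 0.579 CPM in Pax7_GM. The 6 listed of 14 fibro-adipogenic markers, without Pdgfra and Cd34, summed to 505 to 592 CPM in Tw2_48 against 1076 to 1112 CPM in Tw2_GM, and to 798 to 819 CPM in Pax7_48 against 1099 to 1162 CPM in Pax7_GM.

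Whether the culture change differed between the lineages was tested as a difference of changes, Tw2 minus Pax7. Hes6 was the 1 listed member called, higher by 1.16 ± 0.23 (limma, adjusted p = 0.0124; 95% interval 0.62 to 1.70), and 0 members were called lower, where 9.72% of all genes were called higher and 9.01% lower. At an unadjusted p under 0.05 the listed members higher were Hes6, Notch1 and Notch3 and none was lower. How many of all genes passed that looser threshold was not counted, so no direction of the members is read from it. Hes1 and Jag2 were called lower after the GC and length trend had been taken out. Notch1 differed by 0.64 ± 0.20 (adjusted p = 0.0577) and Notch3 by 0.60 ± 0.25 (adjusted p = 0.120). Notch1 was called without the deeper or the shallower Pax7_GM library (adjusted p = 0.0336 and 0.00707), Notch3 without the shallower (adjusted p = 0.0475) and Jag1 without the deeper (adjusted p = 0.0352). The intervals of the others held 0 and were -0.06 to 1.07 for Jag1, -0.77 to 0.12 for Jag2, -1.19 to 0.00 for Hes1 and -0.42 to 0.51 for Notch2.

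The Hes6 difference was 0.81 to 1.64 over all alternatives. Without the shallower Tw2_48 library, the deeper Tw2_GM library or the shallower Pax7_48 library it was 1.07, 1.07 and 1.08, no longer called (adjusted p = 0.0665, 0.0659 and 0.0645). The muscle differentiation markers moved the same way, with 14 of 15 called higher in this difference, beside 9.72% of all genes. Their part in it was not tested. The difference uses the same GM libraries as the comparison of lineages in GM, so the results are not independent. It also uses the group means by which the members were listed, so its p-values are no independent support.

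**Figure D3:**
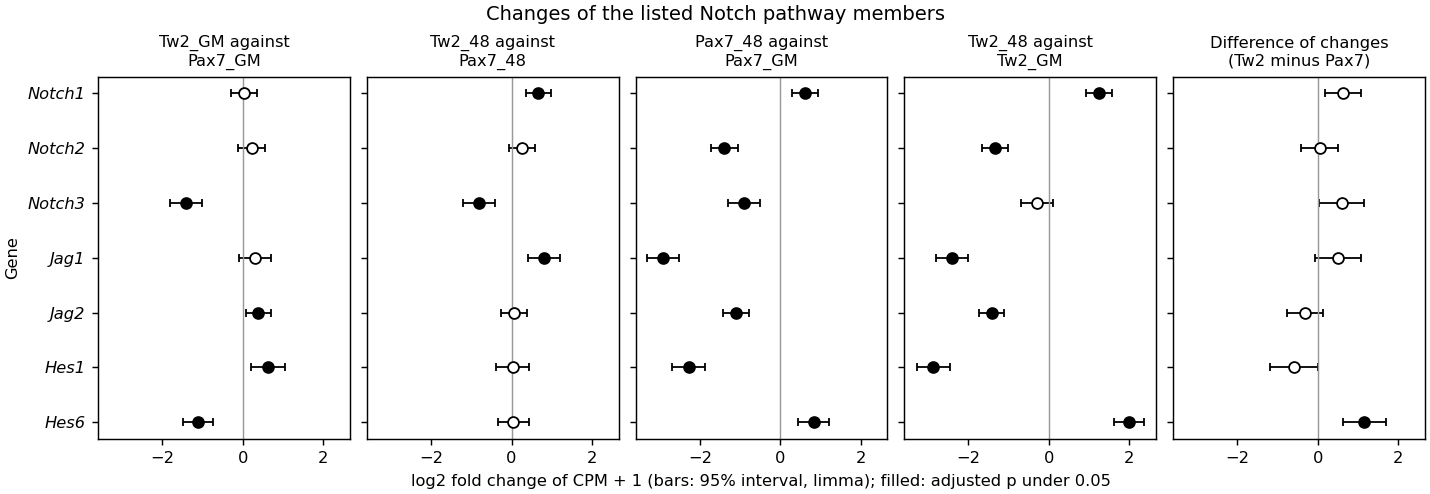
log2 fold change of CPM + 1 (horizontal axis) of each listed member in 5 comparisons, with 95% intervals from limma and filled points for an adjusted p under 0.05. Notch2, Jag1, Jag2 and Hes1 lie left of 0 in both culture comparisons, Notch3 lies left of 0 in both lineage comparisons, and Hes6 is the only filled point in the difference of changes, at 1.16.

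Between lineages in growth medium, Notch3 and Hes6 were lower in Tw2_GM than in Pax7_GM and Jag2 and Hes1 were higher. Notch3 differed by -1.41 ± 0.17 (limma, adjusted p = 0.000208) and Hes6 by -1.11 ± 0.17 (adjusted p = 0.000459). Notch3 was listed only through this difference, so its p-value is no independent support for it. Hes6 had also passed the listing bound here, and it was -0.04 once the GC and length trend was removed (limma, adjusted p = 0.793). Hes1 differed by 0.62 ± 0.18 (adjusted p = 0.0148) and Jag2 by 0.38 ± 0.14 (adjusted p = 0.0324), and both turned below 0 with size factors (-0.24 and -0.49). Hes1 was not called without either Tw2_GM library (adjusted p = 0.0639 and 0.0644), and Jag2 kept its call without the deeper Pax7_GM library and lost it when any one of the others was left out (adjusted p = 0.0556 to 0.138). Jag1 (0.30 ± 0.17), Notch2 (0.21 ± 0.14) and Notch1 (0.03 ± 0.14) were not called, with adjusted p of 0.150, 0.204 and 0.840. Without the shallower Pax7_GM library Jag1 and Notch2 were called higher (adjusted p = 0.0249 and 0.0209). The 2 members higher and the 2 lower stand against 48.7% of all genes called higher and 26% lower, and 6 of the 7 members had libraries that did not overlap, as did 87.8% of all genes. The muscle differentiation markers were called lower in 13 of 15 listed genes in Tw2_GM against Pax7_GM, in the direction of Hes6, and their part in the differences was not tested. Of the 7 listed pericyte and smooth muscle markers 2 were called higher (Rgs5 by 1.94 ± 0.22 and Cspg4 by 1.42 ± 0.19) and 2 lower (Abcc9 with -1.30 ± 0.20 and Acta2 with -0.38 ± 0.13). Of the 6 fibro-adipogenic markers 2 were higher and 3 lower, Col1a2 with -6.51 ± 0.44 (3.61 and 3.28 CPM in Tw2_GM against 424 and 387 CPM in Pax7_GM) and Prrx1 with -3.01 ± 0.25 among them. The endothelial marker Eng was higher by 2.59 ± 0.18, and of the 8 satellite cell markers 1 was higher and 3 were lower. The part of these markers too was not tested.

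In the 48 cultures, Jag1 and Notch1 were higher in Tw2_48 than in Pax7_48 and Notch3 was lower. Jag1 differed by 0.81 ± 0.17 (limma, adjusted p = 0.00492), Notch1 by 0.67 ± 0.14 (adjusted p = 0.00425) and Notch3 by -0.81 ± 0.17 (adjusted p = 0.00483). Notch1 was listed only through its high level in Tw2_48, so its p-value here is no independent support. With size factors Jag1 was 0.31 and Notch1 0.01, neither called. Hes1 (95% interval -0.40 to 0.44), Hes6 (-0.33 to 0.43), Jag2 (-0.25 to 0.37) and Notch2 (-0.07 to 0.59) were not called, and Notch2 was called without either Pax7_GM library (adjusted p = 0.0385). The 2 members higher and the 1 lower stand against 43.3% of all genes called higher and 22.1% lower, and 4 of the 7 had libraries that did not overlap, where 89.6% of all genes did not. Of the 15 listed muscle differentiation markers 4 were called higher and 4 lower. Of the 7 pericyte and smooth muscle markers 4 were higher, Tagln by 1.75 ± 0.17, and 1 was lower, and the endothelial marker Eng was higher by 1.81 ± 0.18. Of the 6 fibro-adipogenic markers 1 was higher and 2 were lower, Col1a2 with -4.21 ± 0.44 (6.84 and 24.1 CPM in Tw2_48 against 270.2 and 246 CPM in Pax7_48) and Prrx1 with -3.37 ± 0.25. The part of these markers in the members' differences was not tested.

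The lineage comparisons depend on how libraries are scaled, since the median of all genes was 0.34 in GM and 0.27 at 48 and moved by -0.84 and -0.63 with size factors. Across genes they also ran with transcript GC content, with a Spearman correlation of -0.69 in GM and -0.61 at 48. For the culture changes that correlation was 0.13 in Tw2_48 and 0.008 in Pax7_48. With size factors, called members were 0 higher and 6 lower in GM, and 0 higher and 5 lower at 48. The median of all genes was then -0.50 in GM and -0.36 at 48. The share of all genes called with size factors was not taken, so nothing about the members is read from these counts. After removal of the GC and length trend they were 4 higher and 1 lower in GM and 5 higher and 1 lower at 48, where over all 5430 genes with a known transcript 3422 were higher and 803 lower in GM, and 2551 higher and 717 lower at 48. In the difference of changes the same removal gave 605 genes higher and 1155 lower. Taken relative to the median of all genes, Notch3 in GM was -1.75 both as deposited and with size factors, and Hes1 was 0.28 and 0.26, while Jag2 was 0.04 and 0.01. Notch3 was lower in Tw2 and called under all 17 alternatives in both cultures, between -2.25 and -0.998 in GM and between -1.45 and -0.58 at 48. Its listing rested on the difference in GM, and the alternatives reuse the same libraries, so they add no independent support there. Hes6 in GM was -0.04 once that trend was removed (adjusted p = 0.793), and Hes1 was 1.51.

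**Figure D4:**
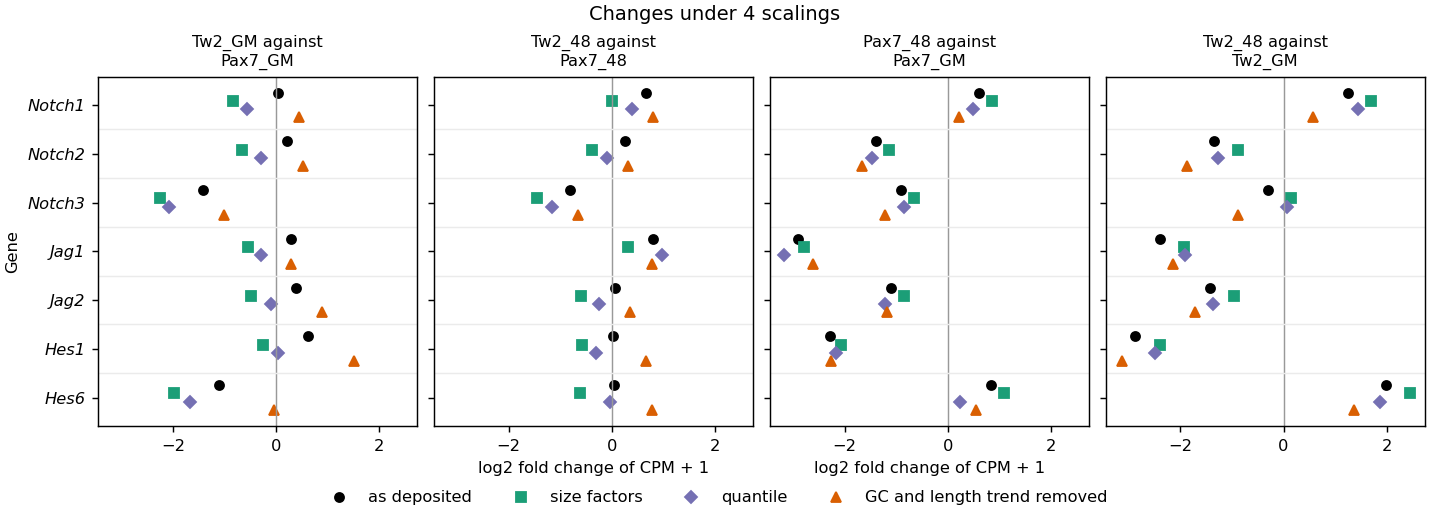
log2 fold change of CPM + 1 (horizontal axis) of each listed member in 4 comparisons under 4 scalings, marked by shape and colour. In the 2 lineage comparisons most members cross 0 between scalings and Notch3 stays left of it, while in the culture comparisons Notch2, Jag1, Jag2 and Hes1 stay left of 0 under all 4.

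The members lie on 6 autosomes of GRCm38: Notch1 (chr2:26457903-26516663) and Jag1 (chr2:137081456-137116644) on the minus strand of chromosome 2, Notch2 on the plus strand at chr3:98013527-98150361 and Notch3 on the minus strand at chr17:32120820-32166852. Jag2 lies at chr12:112907819-112929776 and Hes6 at chr1:91411483-91414038, both on the minus strand, and Hes1 at chr16:30064384-30067796 on the plus strand. Exons of Notch1 overlap those of the noncoding antisense genes 0610009E02Rik by 1068 bases and Gm13568 by 414, those of Notch3 overlap the antisense Gm17276 by 488, and those of Notch2 overlap Gm42820, on the same strand, by 541. The strand handling of the libraries is not stated, so reads from these stretches cannot be told apart between the overlapping genes.

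The other genes of the pathway were counted over lists chosen with earlier results of these data known. Of all genes, 35.3% were called higher and 48.9% lower in Tw2_48 against Tw2_GM (median -0.50), and 38.7% higher and 40.5% lower in Pax7_48 against Pax7_GM (median 0.01). Each list's count stands beside these shares, and with so few listed genes nothing particular to a list is read from it. Of the genes that process or glycosylate the receptor, 5 of 16 were listed. The fringe glycosyltransferase Lfng, which tunes the response of Notch to its ligands, measured 1.60 and 2.34 CPM in Tw2_48 against 29.8 and 26.7 CPM in the Tw2_GM libraries, and 2.91 and 2.09 CPM in Pax7_48 against 33.7 and 30.1 CPM in Pax7_GM. Lfng fell by 3.31 ± 0.18 in Tw2_48 and fell by 3.24 ± 0.18 in Pax7_48 (limma, adjusted p = 5.04e-07 and 9.27e-07). Psen2, a catalytic subunit of the gamma-secretase that cuts the receptor free, measured 84.6 and 88.0 CPM in Tw2_48 against 8.71 and 6.73 CPM in the Tw2_GM libraries, and 93.7 and 109.9 CPM in Pax7_48 against 19.6 and 13.9 CPM in Pax7_GM. Psen2 rose by 3.33 ± 0.19 in Tw2_48 and by 2.55 ± 0.19 in Pax7_48. In all, 1 of these 5 rose and 3 fell in Tw2_48, and 1 rose and 2 fell in Pax7_48, with a median log2 change of -0.86 and of -0.20.

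In the nuclear complex and its regulators, 13 of 26 genes were listed, of which 2 rose and 9 fell in Tw2_48 against Tw2_GM and 3 rose and 7 fell in Pax7_48 against Pax7_GM, beside 35.3% of all genes higher and 48.9% lower in Tw2_48 and 38.7% and 40.5% in Pax7_48. Their median change was -0.997 in Tw2_48 and -0.85 in Pax7_48. Rbpj, the DNA-binding partner of the cleaved receptor, measured 44.8 and 40.0 CPM in Tw2_48 against 115 and 99.2 CPM in the Tw2_GM libraries, and 26.4 and 24.4 CPM in Pax7_48 against 62.7 and 79.9 CPM in Pax7_GM. It fell by 1.32 ± 0.16 in Tw2_48 and fell by 1.45 ± 0.16 in Pax7_48 (limma, adjusted p = 7.82e-05 and 5.42e-05). The corepressors Ctbp2 and Tle1 had changes of -2.11 ± 0.12 and -1.97 ± 0.12 in Tw2_48, and of -1.92 ± 0.12 and -1.67 ± 0.12 in Pax7_48, all called. In Tw2_GM against Pax7_GM, 9 of the 13 were called higher and 1 lower, where 48.7% of all genes were higher and 26% lower, and in Tw2_48 against Pax7_48 9 were higher and 2 lower, where 43.3% were higher and 22.1% lower. These directions depend on the scaling, and Rbpj in GM was 0.59 as deposited and -0.27 with size factors.

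Of the genes for trafficking of ligand and receptor, 7 of 19 were listed, of which 4 rose in Tw2_48 and 3 rose in Pax7_48 while the others were not called, beside 35.3% and 38.7% of all genes called higher (medians 0.91 in Tw2_48 and 0.53 in Pax7_48). The ubiquitin ligase Neurl1a rose by 3.96 ± 0.14 in Tw2_48 and by 2.59 ± 0.14 in Pax7_48, and Numbl, an endocytic adaptor related to the Notch inhibitor Numb, rose by 2.60 ± 0.18 in Tw2_48 and by 1.63 ± 0.18 in Pax7_48. Dtx4, a Deltex ubiquitin ligase, measured 37.1 and 35.5 CPM in Tw2_48 against 6.90 and 3.72 CPM in the Tw2_GM libraries, and 32.6 and 32.2 CPM in Pax7_48 against 26.3 and 23.9 CPM in Pax7_GM. It rose by 2.61 ± 0.22 in Tw2_48, and its 0.36 ± 0.22 in Pax7_48 was not called (limma, adjusted p = 0.170). The difference of changes was called higher for Dtx4 (2.25 ± 0.31, adjusted p = 0.00254), Neurl1a (1.38 ± 0.19) and Numbl (0.97 ± 0.25).

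Of 12 genes reported as Notch targets in mouse satellite cells, 5 were listed, and 2 rose and 3 fell in Tw2_48 while 1 rose and 3 fell in Pax7_48, near the shares over all genes in Tw2_48 (medians -0.79 in Tw2_48 and -0.94 in Pax7_48). Pax7 fell by 3.02 ± 0.12 in Tw2_48 and fell by 3.42 ± 0.12 in Pax7_48, and the basement membrane gene Nid1 fell by 2.07 ± 0.13 in Tw2_48 and fell by 1.47 ± 0.13 in Pax7_48. The collagen gene Col5a3 rose by 2.45 ± 0.24 in Tw2_48 and by 1.88 ± 0.24 in Pax7_48. The list thus went both ways, and Dtx4 stands in it as well.

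Of 12 genes for non-canonical ligands and related proteins with EGF repeats, 4 were listed, and 1 rose and 2 fell in each lineage's 48 culture, near the shares over all genes (medians -0.77 in Tw2_48 and -0.81 in Pax7_48). Dner, a transmembrane ligand best known from neurons, measured 54.3 and 50.7 CPM in Tw2_48 against 0.821 and 0.974 CPM in the Tw2_GM libraries, and 95.6 and 74.9 CPM in Pax7_48 against 10.6 and 11.4 CPM in Pax7_GM. Its rise was 4.82 ± 0.15 in Tw2_48 and 2.84 ± 0.15 in Pax7_48, with a difference of changes of 1.98 ± 0.21 (limma, adjusted p = 0.000818). Dlk1, a Delta-like protein reported to oppose Notch, fell by 3.43 ± 0.29 in Tw2_48 and fell by 3.17 ± 0.29 in Pax7_48.

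Among E proteins, Id factors and related bHLH repressors, which share binding sites or partners with Hes proteins, 7 of 10 were listed. Of these, 2 rose and 4 fell in each lineage's 48 culture, beside the shares over all genes of 35.3% higher and 48.9% lower in Tw2_48 and of 38.7% and 40.5% in Pax7_48 (medians -2.05 in Tw2_48 and -2.07 in Pax7_48). The Id genes all fell, Id3 with -6.41 ± 0.23 in Tw2_48 and -5.33 ± 0.23 in Pax7_48, Id2 with -4.60 ± 0.25 and -3.72 ± 0.25, and Id1 with -4.36 ± 0.21 and -4.17 ± 0.21, in the same order of lineages (limma, each adjusted p at most 2.46e-06). The E protein genes went different ways. Tcf3 fell by 2.05 ± 0.15 in Tw2_48 and fell by 2.07 ± 0.15 in Pax7_48, Tcf4 rose by 1.15 ± 0.29 in Tw2_48 and by 1.74 ± 0.29 in Pax7_48, and Tcf12, at -0.12 ± 0.22 in Tw2_48 and -0.04 ± 0.22 in Pax7_48, was not called. The other gene that rose was Bhlhe40, a bHLH repressor that is neither an E protein nor an Id factor.

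**Figure D5:**
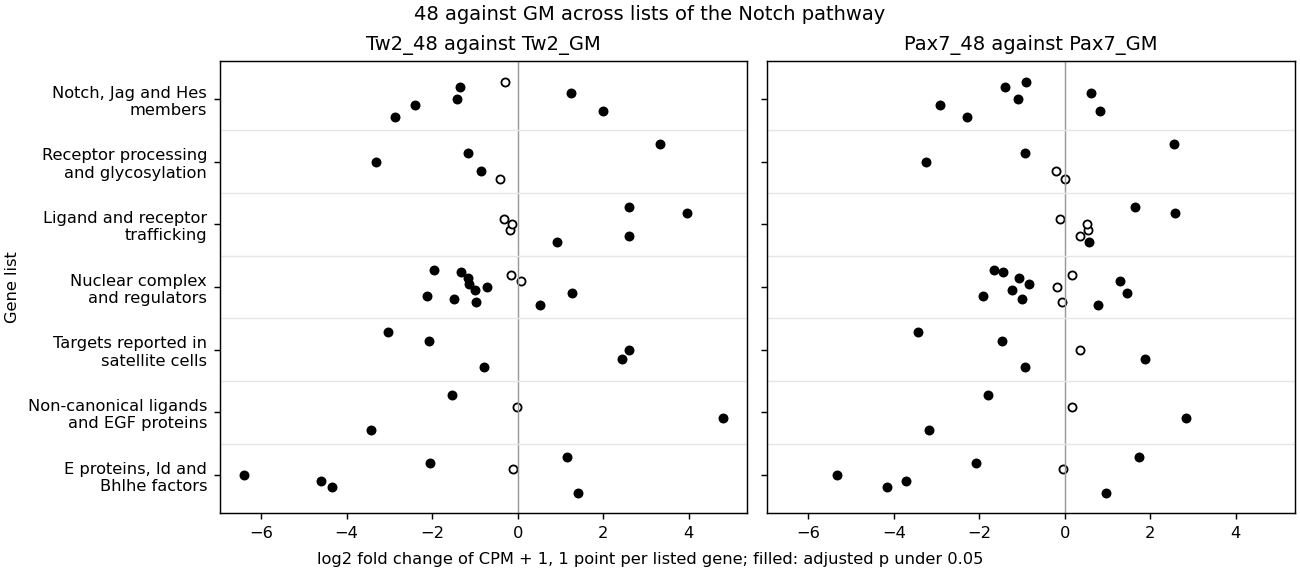
log2 fold change of CPM + 1 (horizontal axis) in the 48 culture against the GM culture, 1 point per listed gene in 7 gene lists, Tw2 in the left panel and Pax7 in the right, with filled points for an adjusted p under 0.05. The trafficking list has no filled point left of 0 in either lineage, and Id3 is the point farthest left, at -6.41 in Tw2_48 and -5.33 in Pax7_48.

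The genes whose pattern over the 8 libraries was most like that of the receptor, ligand and Hes gene with the highest mean CPM were taken by Pearson correlation of log2(CPM + 1), as a description. Nearest to Notch2 were Tns3 (r = 0.998), Pcdh18 (0.996) and Ifngr1 (0.996), and nearest to Jag2 were Lrrc8a, Ywhah and Samd4b (0.997 each). Nearest to Hes6 were Med27 (0.996), Dok7 (0.995) and Fmnl1 (0.993). Dok7 averaged 185 CPM in Tw2_48 against 32.6 CPM in the Tw2_GM libraries, and 208 CPM in Pax7_48 against 96.0 CPM in Pax7_GM. The 8 libraries fall into 4 groups and are not 8 independent points.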

How the data were processed

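RNA-seq was measured in 8 libraries, grouped by their titles. The authors deposited group mean CPM (counts per M reads) and log2 fold changes against Tw2_GM, which equal log2 of (mean + 1) over (Tw2_GM mean + 1) to within 1.41e-11, and a further status column of the deposited table holds 1 for every member. TopHat2 2.0.0, DESeq2 1.6.3 and GRCm38 (mm10) are named in the submitters' processing notes. Their roles, the counting and the annotation are not given in the sources used here. In every solved gene 4 or more of the 8 libraries reached 10 CPM.

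The mean of 2 libraries adds whole reads of each, weighted by a step that depends on its size. All whole-read pairs matching the deposited mean within 1.1 times its rounding error were counted, and 5451 of 5457 genes had 1 solution in all groups. The implied library sizes are not whole numbers, so they need not be raw read totals, and the means carry no replicate numbers. A count of 0 allows up to 3 reads, or 0.218 to 0.579 CPM depending on the library, for counting error only.

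limma 3.58.1 (R 4.3.3; Python 3.11.15) was fitted to log2(CPM + 1) of all 8 libraries, 1 mean per group, eBayes without trend (4 residual and 4.02 prior degrees of freedom), with Benjamini-Hochberg adjustment over 5451 genes. All tests are two-sided. Alternatives were pseudocounts of 0.5 and 5, a filter at a mean of 10 CPM, size factors, quantile normalization, removal of the GC and length trend (splines, 4 degrees of freedom, 5430 genes), voom weights, a mean-variance trend, each library left out, and only the 4 libraries compared. Solver and test were checked on simulated data. Members and gene lists were chosen with earlier results of these data known. All listed members are named; from lists, called genes with the largest changes, up to 4 per comparison, or any of a list with fewer than 6 listed genes. Some that this rule gives are not named, and Tcf4, Tcf12, Bhlhe40 and the marker genes of other cells were named after their values were seen.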

Additional observations from a re-analysis of the deposited data

Results flagged for a closer look

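Hes6 was singled out because its change between cultures differed between the lineages by a test of the difference itself. Its log2 change in Tw2_48 against Tw2_GM was larger by 1.16 than that in Pax7_48 against Pax7_GM (limma, adjusted p = 0.0124). Hes6 was listed through the same group means, so this p-value is no independent support for the difference. In this difference 9.72% of all genes were called higher. With 1 library left out the Hes6 value ranged from 0.98 to 1.34, and it was not called in every case. Hes6 was higher in both 48 libraries than in both GM libraries of each lineage. With 2 libraries a group no group could be tested for a library far from the others.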

How the results depend on the processing

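Of the values of 7 members under 17 alternatives, 115 in Tw2_48 against Tw2_GM and 117 in Pax7_48 against Pax7_GM kept their direction and their side of the threshold, as did 92 in Tw2_GM against Pax7_GM and 97 in Tw2_48 against Pax7_48. The causes were not tested.

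Shares over all genes were taken only for the main setting and for the removal of the GC and length trend. The counts under the alternatives that follow therefore say nothing particular to the members. In Tw2_GM against Pax7_GM, called members were 0 higher and 6 lower with size factors, 0 higher with quantile normalization, 4 higher and 1 lower with the GC and length trend removed, and 1 higher with only the 4 libraries compared. Leaving out 1 library gave 2 to 5 called, 0 to 3 higher. Without the deeper or the shallower Tw2_GM library, 2 were called in all and 0 higher. In Tw2_48 against Pax7_48 they were 5 in all (0 higher, 5 lower) with size factors and 6 in all (5 higher) with the GC and length trend removed. In Pax7_48 against Pax7_GM 1 was higher with quantile normalization and 1 with that trend removed. In the difference of changes 2 were called, both higher, with a pseudocount of 5, size factors, voom weights or a mean-variance trend, 4, all higher, with quantile normalization, and 3, 2 of them lower, with the GC and length trend removed. Leaving out 1 library gave 0 to 3 called there, 0 to 3 higher, with 3 without either Pax7_GM library.

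Directions turned as follows. In Tw2_GM against Pax7_GM with size factors, Hes1 was -0.24, Jag1 -0.54, Jag2 -0.49, Notch1 -0.83 and Notch2 -0.65, and with quantile normalization Jag1 was -0.29, Jag2 -0.10, Notch1 -0.56 and Notch2 -0.29. In Tw2_48 against Pax7_48 with size factors, Hes1 was -0.57, Hes6 -0.61, Jag2 -0.59 and Notch2 -0.39, with quantile normalization Hes1 was -0.31, Hes6 -0.0316, Jag2 -0.25 and Notch2 -0.0914, and with voom weights Hes1 was -0.0085. In Tw2_48 against Tw2_GM Notch3 was 0.143 under size factors and 0.0637 under quantile normalization. In the difference of changes Notch2 was -0.20 with the GC and length trend removed. With 1 library left out, Notch1 in GM ranged from -0.0314 to 0.10, at 48 Hes1 from -0.26 to 0.30, Hes6 from -0.042 to 0.14 and Jag2 from -0.0044 to 0.12, and the Notch2 difference from -0.10 to 0.20. Where a group was left with 1 library, it was assumed to vary like the other groups.

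No paired analysis was possible because the deposited columns are group means that carry no replicate numbers. Jag1 rests on 20 to 61 reads a library in the 48 cultures, and the other members on 55 or more.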
